A study of Mus musculus with 9 samples.

Results

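The lysosome and endosome genes described here were 36 genes picked by name from the 57238 entries of the authors' table: 12 cathepsins and legumain, 11 other hydrolases and the saposin precursor, 5 membrane proteins, 5 proton pump subunits and 3 of the MiT/TFE transcription factors. All 36 were found, and all 36 were among the 15028 genes that passed the filter on low counts. The lysosome is the acidic compartment in which proteins, lipids, nucleic acids and glycans taken up or discarded by the cell are broken down; a proton pump (V-ATPase) keeps it acidic, cathepsins cut proteins, and many of its genes are switched on by the MiT/TFE factors TFEB, TFE3 and MITF. In dendritic cells the endosome and lysosome also cut antigens and trim the invariant chain of MHC class II, and exosomes, small vesicles that cells release from multivesicular endosomes, are taken up into the same compartments.

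The cells were bone marrow-derived dendritic cells (BMDCs) of wildtype C57BL/6 mice, 8 to 10 weeks old by the study's methods, grown in GM-CSF at 20 ng/ml. The labels give 6 days of culture and the methods 7. There were 3 groups of 3 libraries: CTR cells were left without exosomes, NE-treated cells were given vesicles of the NIH 3T3 line, mouse fibroblasts that are not cancerous, and TDE-treated cells were given vesicles of tumor cells, in both cases for 24 h. The labels do not name the tumor line, and neither do the paper's methods for RNA sequencing. The paper worked with exosomes of several mouse tumor lines. It states that those not specified came from TC-1, which it calls a cervical carcinoma, or MC38, a colon carcinoma. Nothing in the sources says whether the 3 libraries of a group came from separate mice or cultures, so the p-values measure only the spread between these libraries, which may be technical.

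Each library held 17469782 to 21092943 estimated reads on genes, so 3 reads, the limit that a count of 0 allows, equal 0.142 to 0.172 CPM (reads scaled to library size), for counting error only. Levels below are CPM with TMM library scaling. CTR replicate 1 stood apart from the rest: its log2 CPM correlated at 0.827 to 0.900 with the other 8 libraries, which correlated at 0.941 to 0.990 with each other. It lay outside the range of the other 8 libraries for 31 of the 36 genes (19 above, 12 below), where the same held for 75.0% of all genes tested (36.5% above, 38.5% below). Against the mean of CTR replicates 2 and 3 it held 3.43-fold the Ctsz, 2.92-fold the Cd63 and 2.71-fold the Ctsd, but 0.273-fold the Asah1 and 0.283-fold the Atp6v1a. Only Lipa, Ppt1, Scarb2, Mcoln1 and Atp6v0d2 lay within the other libraries' range in it, so comparisons of the 36 genes against CTR are given with and without this library, and those against NE where its removal changed the call.

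**Figure D1:**
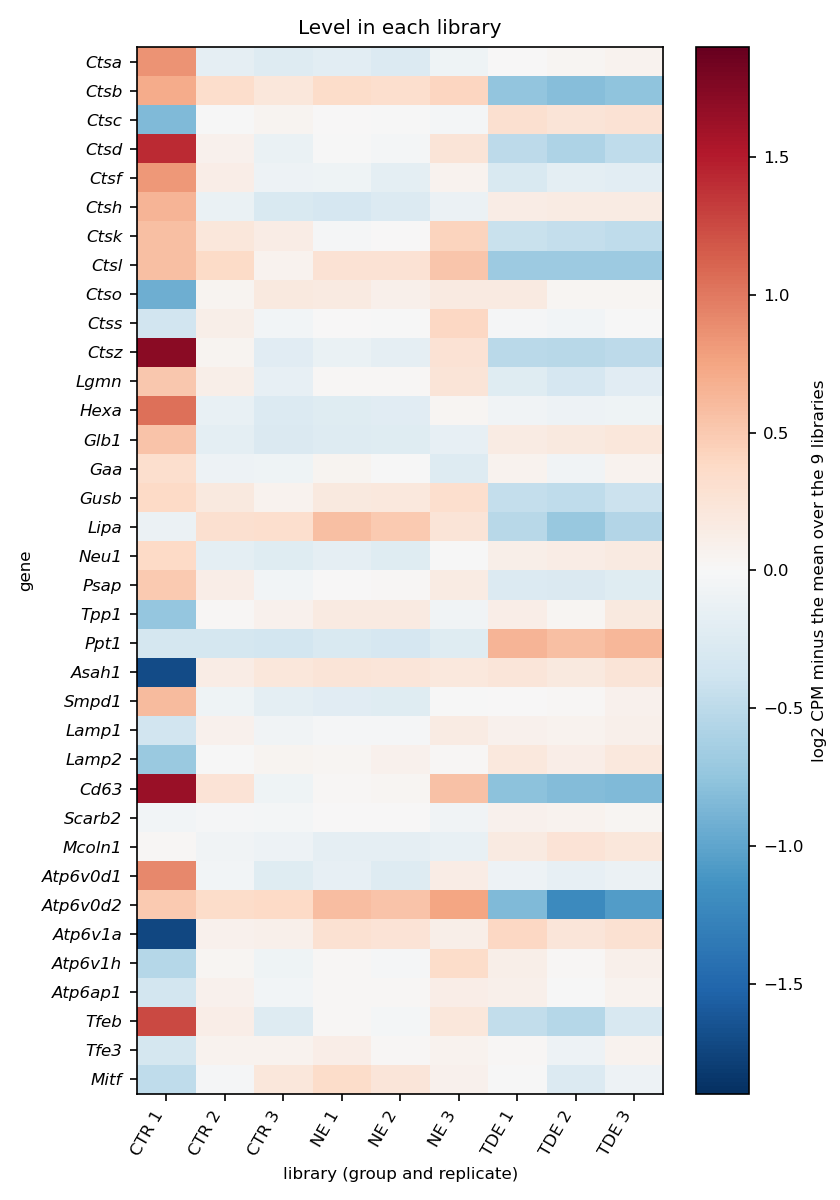
Level of the 36 genes (rows, by role) in the 9 libraries (columns), as log2 CPM minus the gene's mean over the 9 libraries, with red above and blue below that mean. CTR replicate 1 has the strongest colours in most rows, and Ctsb, Ctsl, Lipa and Atp6v0d2 are blue and Ppt1 red in all 3 TDE-treated libraries.

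The first comparison asked how TDEs changed the lysosomal genes of BMDCs relative to untreated cells. In TDE-treated BMDCs, 7 of the 36 genes fell (Ctsb, Ctsk, Ctsl, Gusb, Lipa, Cd63 and Atp6v0d2) and 1 rose (Ppt1) by edgeR's quasi-likelihood test at a Benjamini-Hochberg adjusted p under 0.05. The same test called 9.34% of all genes lower and 7.57% higher, so 19.4% of the lysosomal genes fell and 2.78% rose. Without CTR replicate 1, 11 fell and 7 rose, that is 30.6% and 19.4%, against a background of 18.0% and 16.4%. Log2 fold changes were below 0 for 19 genes and above 0 for 17. Their median was -0.04, with -0.05 for all genes tested, and 0.01 against -0.02 without CTR replicate 1. Single values ran from -1.62 for Cd63 to 0.95 for Ppt1. The TDE-treated libraries all lay below every CTR library for 13 of the 36 genes and all above for 6, where 21.8% and 22.2% of all genes did so. Neutrophil and eosinophil markers were lower in the same libraries (8 of 10 and 6 of 6 called), and their part in these counts was not tested. With DESeq2, 2 rose and 11 fell (11.6% and 15.1% of all genes), and with limma voom and sample weights 9 rose and 13 fell (25.8% and 26.7%). Leaving out CTR replicate 3 gave 13 lower genes, and leaving out any 1 TDE-treated library gave 3 (Ctsb, Ctsl and Atp6v0d2). Calls among all genes, in either direction, moved as well. They were 2541 of 15028 with all libraries, 3944 of 15418 without CTR replicate 3, and 1103 to 1177 of 15419 to 15451 without a TDE-treated library.

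The comparison with NE-treated BMDCs asked whether exosomes of non-cancerous cells gave the same levels. TDE-treated compared to NE-treated BMDCs had 5 lower (Ctsb, Ctsl, Gusb, Lipa and Atp6v0d2) and 2 higher genes (Ppt1 and Mcoln1), where 7.21% of all genes were lower and 6.73% higher. With CTR replicate 1 left out of the shared estimate of spread, 13 were lower and 7 higher, against 21.5% and 19.2% of all genes. With only the 6 TDE and NE libraries fitted the counts were also 13 and 7, where 6072 of all 14483 genes tested were called in either direction. The fit to all 9 libraries called 2095 of 15028. DESeq2 gave 6 lower and 2 higher (9.95% and 10.2% of all genes), and voom 13 and 9 (28.3% and 27.0%). The TDE-treated libraries lay below every NE-treated library for 15 of the 36 genes and above for 10, as for 27.7% and 26.8% of all genes. No gene of the list differed between NE-treated and CTR BMDCs, and of all 15028 genes 0 (0.0%) passed edgeR's test, 6 passed DESeq2's (0.0399%), 18 voom's (0.12%: 0.0133% higher and 0.106% lower), 3 edgeR's without CTR replicate 1 (0.0196%), and 487 had an unadjusted p under 0.05 (3.24%). Libraries of NE-treated and CTR BMDCs did not overlap for Ppt1, Atp6v0d2 and Atp6v1a (higher, 4.05% of all genes) and for Mcoln1 (lower, 3.67%). The 36 log2 fold changes of NE-treated against CTR BMDCs lay between -0.78 and 0.53, and between -0.09 and 0.27 without CTR replicate 1. A p above the threshold does not show that NE-treated and CTR BMDCs were alike. The comparisons of TDE-treated BMDCs with CTR and with NE-treated BMDCs share the TDE libraries, so their values are given side by side below.

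**Figure D2:**
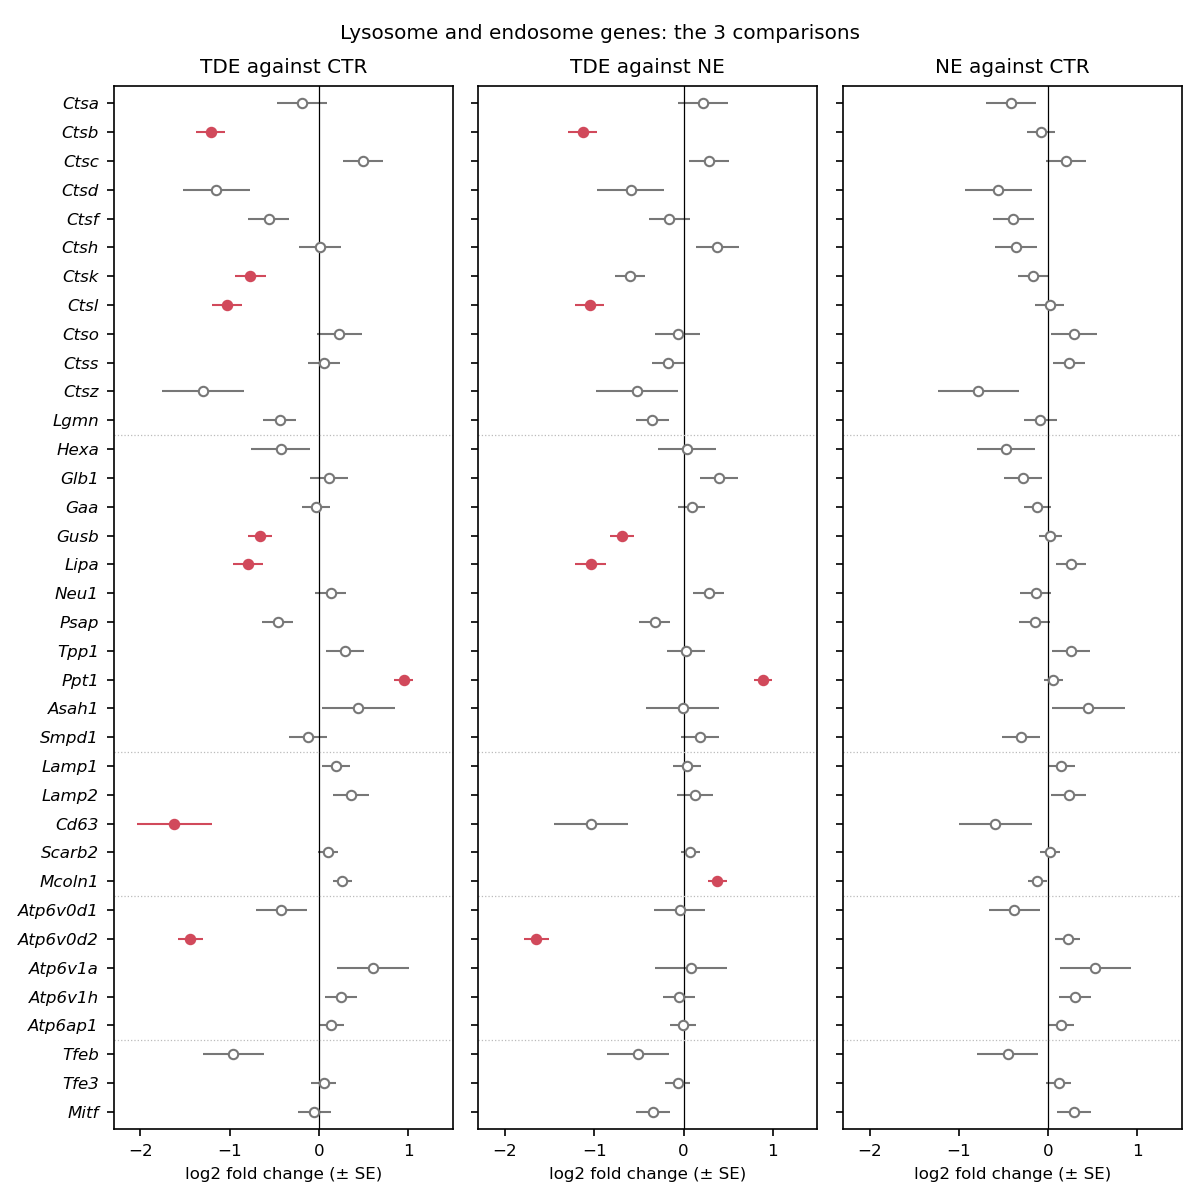
Log2 fold change of each gene (points) with its standard error (bars) in the 3 comparisons, fitted to all 9 libraries, with dotted lines between roles. Filled red points have an edgeR adjusted p under 0.05: 8 genes for TDE against CTR, 7 for TDE against NE and 0 for NE against CTR.

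The MiT/TFE factors bind a short palindrome in the promoters of lysosomal genes, the CLEAR element, and raise their transcription. Tfeb, the best known of the 3, was at 126, 57.7 and 45.0 CPM in CTR replicates 1, 2 and 3, 54.0, 51.5 and 61.6 CPM in NE-treated and 38.3, 36.4 and 42.8 CPM in TDE-treated BMDCs. The TDE-treated libraries were below all others. Its log2 fold change against CTR was -0.96 (SE 0.344, edgeR adjusted p = 0.0907), which missed the threshold, and -0.40 without CTR replicate 1 (edgeR adjusted p = 0.0387). Against NE it was -0.51 (SE 0.342, edgeR adjusted p = 0.422), and -0.52 without CTR replicate 1 (edgeR adjusted p = 0.00686). With all 9 libraries, voom called Tfeb in both comparisons (adjusted p = 0.00174 and 0.00134) and DESeq2 against CTR alone (adjusted p = 0.0426). The edgeR test also called it against CTR without CTR replicate 3 (log2 fold change -1.22), so the call varied with the test and the libraries kept.

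Tfe3, a close relative of Tfeb, was at 84.0, 110.4 and 111 CPM in CTR replicates 1, 2 and 3, 115, 107 and 110.4 CPM in NE-treated and 108, 99.2 and 110.5 CPM in TDE-treated BMDCs. These ranges overlapped apart from the low CTR replicate 1, and no comparison was called, with log2 fold changes of 0.05 (SE 0.141, edgeR adjusted p = 0.793) against CTR and -0.07 (SE 0.141, edgeR adjusted p = 0.859) against NE. Without CTR replicate 1 the value of Tfe3 against CTR turned to -0.08 (edgeR adjusted p = 0.475). Mitf, the factor known from melanocytes, osteoclasts and mast cells, was at 67.9, 94.1 and 110.1 CPM in CTR replicates 1, 2 and 3, 121, 112 and 100.4 CPM in NE-treated and 94.5, 79.7 and 88.6 CPM in TDE-treated BMDCs. TDE-treated BMDCs lay within the range of the CTR libraries and below all NE-treated libraries. Its log2 fold change was -0.05 (SE 0.187, edgeR adjusted p = 0.859) against CTR, or -0.23 without CTR replicate 1 (edgeR adjusted p = 0.148), and against NE it was -0.34 (SE 0.187, edgeR adjusted p = 0.303), or -0.35 without CTR replicate 1 (edgeR adjusted p = 0.0221).

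The core of the CLEAR element, TCACGTG, was searched on both strands in the RefSeq promoter windows of build GRCm38.p6. Each window ran from 250 bases before to 50 after a start of the gene. A gene with several starts was counted as holding the core if any of its windows did. This core contains the plain E-box CACGTG. Windows were found for 31 of the 36 genes (not for Asah1, Atp6v0d2, Atp6v1h, Ctsb and Ctsh), and 9 held the core (29.0%): Atp6v0d1, Atp6v1a, Ctsa, Ctsd, Gaa, Glb1, Lamp1, Lgmn and Mcoln1. Ctsa and Lgmn, which have more than 1 start, did not hold it at every start. Of all 27025 genes with a window, 4.29% held the core. The plain E-box was held by 11 of the 31 genes (35.5%), adding Ctsf and Ctsl, and by 8.09% of all genes with a window. The stretches printed here are shown because these letters sort the genes into holders and non-holders. They read 5′ to 3′ along the gene's strand, and capitals mark the core or, in Ctsl, the E-box.
Mcoln1: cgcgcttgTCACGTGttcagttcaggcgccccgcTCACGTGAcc
Lamp1: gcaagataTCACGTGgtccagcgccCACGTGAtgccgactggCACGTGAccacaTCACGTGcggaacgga
Ctsd: cgcgtcTCACGTGAcccgttga
Glb1: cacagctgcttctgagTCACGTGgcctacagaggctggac
Atp6v1a: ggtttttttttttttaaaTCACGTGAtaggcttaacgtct
Ctsl: gttagaagcCACGTGctgatctaaa
The Mcoln1 stretch is chr8:3500439-3500482, plus strand, and holds 2 matches. That of Lamp1 is chr8:13159091-13159160, plus strand, and holds 4 matches. The others are chr7:142387911-142387932, minus strand, for Ctsd, chr9:114401013-114401052, plus strand, for Glb1, chr16:44139370-44139409, minus strand, for Atp6v1a, and chr13:64370741-64370765, minus strand, for Ctsl. In GENCODE vM21, 26 of the 44 bases of the Mcoln1 stretch, all 22 of Ctsd and 13 of the 25 of Ctsl fall in an exon of the same gene, those of Lamp1 and Glb1 lie before the gene, and that of Atp6v1a lies within the annotated gene but in none of its exons. Of the 9 genes with the core, 0 were called in TDE-treated against CTR BMDCs, with log2 fold changes from -1.15 to 0.61, and 1 was called against NE (Mcoln1, higher). Against CTR, 3 of them were higher (Ctsa, Glb1 and Mcoln1) and 1 lower (Ctsd) once CTR replicate 1 was left out. Of the 22 with a window and no core, 1 was higher (Ppt1) and 5 lower (Ctsk, Ctsl, Gusb, Lipa and Cd63) against CTR, 1 was higher and 3 lower against NE, and 3 were higher and 8 lower against CTR without CTR replicate 1. Of all genes, 7.57% were higher and 9.34% lower against CTR, 6.73% and 7.21% against NE, and 16.4% and 18.0% against CTR without that library. Whether genes with and without the core differ was not tested.

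The promoters of 3 genes that moved and hold neither motif in this window are given for contrast, as the 70 bases before the start.
Ppt1: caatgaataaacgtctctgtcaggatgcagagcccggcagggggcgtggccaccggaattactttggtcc
Lipa: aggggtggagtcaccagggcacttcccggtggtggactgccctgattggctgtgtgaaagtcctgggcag
Gusb: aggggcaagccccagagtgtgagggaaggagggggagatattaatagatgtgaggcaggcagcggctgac
They lie at chr4:122836157-122836226, plus strand, for Ppt1, at chr19:34527475-34527544, minus strand, for Lipa, and at chr5:130003050-130003119, minus strand, for Gusb. A match or its absence describes these letters only and was not tested as a binding site.

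Of the 12 cathepsins and legumain, 3 fell against CTR (Ctsb, Ctsk and Ctsl), 0 rose and 9 did not pass, beside 9.34% lower and 7.57% higher of all genes. Leaving out CTR replicate 1, 5 fell and 3 rose, beside 18.0% and 16.4%. Ctsb, a cysteine protease with both endopeptidase and peptidyl-dipeptidase activity (GRCm38 chromosome 14, 63122462 to 63145923, plus strand), was at 5041, 3874 and 3582 CPM in CTR replicates 1, 2 and 3, 3917, 3839.8 and 4064 CPM in NE-treated and 1823, 1753 and 1815 CPM in TDE-treated BMDCs. Every TDE-treated library was below every other library. TDE-treated BMDCs had a log2 fold change of -1.21 (SE 0.163, edgeR adjusted p = 0.00235) against CTR and -1.13 (SE 0.163, edgeR adjusted p = 0.00302) against NE, which is 2.32-fold and 2.19-fold lower. It was -1.06 without CTR replicate 1 (edgeR adjusted p = 9.06e-06). Exons of Ctsb overlap those of Fdft1 on the other strand, and the strand used in counting is not stated.

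Ctsl, the cysteine protease that trims the invariant chain in thymic epithelium and cuts proteins in macrophage lysosomes (GRCm38 chromosome 13, 64359337 to 64370890, minus strand), was at 1285, 1113 and 912 CPM in CTR replicates 1, 2 and 3, 1046, 1054 and 1249 CPM in NE-treated and 536, 540.1 and 540.5 CPM in TDE-treated BMDCs. The TDE-treated libraries did not overlap with the other groups. Ctsl had a log2 fold change of -1.03 (SE 0.163, edgeR adjusted p = 0.00476) against CTR and -1.05 (SE 0.164, edgeR adjusted p = 0.00422) against NE. It was -0.92 without CTR replicate 1 (edgeR adjusted p = 0.000225). Its exons overlap the predicted genes Gm47123 and Gm49230. Ctsk, the collagen-cutting cathepsin of osteoclasts (GRCm38 chromosome 3, 95499256 to 95509362, plus strand), was at 39.6, 31.1 and 29.4 CPM in CTR replicates 1, 2 and 3, 26.4, 26.8 and 35.95 CPM in NE-treated and 20.0, 19.6 and 19.1 CPM in TDE-treated BMDCs. The TDE-treated libraries were again the lowest. Of 5 osteoclast markers tested, 3 fell and 1 rose against CTR, beside 9.34% and 7.57% of all genes. Without CTR replicate 1, 2 fell and 1 rose, beside 18.0% and 16.4%. The part of these markers' cells in the level of Ctsk was not tested. For Ctsk the log2 fold change was -0.77 (SE 0.172, edgeR adjusted p = 0.0198) against CTR, and against NE -0.60 (SE 0.172, edgeR adjusted p = 0.0527), which missed the threshold. They came to -0.64 (edgeR adjusted p = 0.00577) and -0.61 (edgeR adjusted p = 0.00354) without CTR replicate 1. Without any 1 of the 3 TDE-treated libraries the call against CTR was lost, with adjusted p up to 0.0871 and log2 fold changes of -0.84 to -0.64 over all libraries left out in turn.

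Ctsd, the main aspartic protease of the lysosome, and Ctsz, a carboxypeptidase, were far higher in CTR replicate 1 than in the rest. Ctsd was at 12444, 4914 and 4262 CPM in CTR replicates 1, 2 and 3, 4630.3, 4528 and 5504 CPM in NE-treated and 3281, 3103 and 3348 CPM in TDE-treated BMDCs, with all TDE-treated libraries lowest. The difference in log2 was -1.15 (SE 0.378, edgeR adjusted p = 0.0724) against CTR, and -0.51 without CTR replicate 1 (edgeR adjusted p = 0.00504). Against NE it was -0.59 (SE 0.375, edgeR adjusted p = 0.388), and -0.60 without CTR replicate 1 (edgeR adjusted p = 0.000979). Ctsz ranged over 612 to 2317 CPM in CTR, 631 to 861 CPM in NE-treated and 491 to 501 CPM in TDE-treated BMDCs. For Ctsz it was -1.30 (SE 0.463, edgeR adjusted p = 0.0898) against CTR, and -0.45 without CTR replicate 1 (edgeR adjusted p = 0.0306). Against NE, Ctsz was at -0.52 (SE 0.457, edgeR adjusted p = 0.562), and at -0.53 without CTR replicate 1 (edgeR adjusted p = 0.00803). Both genes thus passed edgeR's test against CTR only without CTR replicate 1 or with CTR replicate 3 left out, at a smaller difference in the former. With all 9 libraries, DESeq2 called both against CTR (adjusted p = 0.0195 for Ctsd and 0.0294 for Ctsz). So did voom (adjusted p = 0.00012 and 0.000583). Against NE, voom called both (adjusted p = 5.69e-05 and 0.00135) and DESeq2 neither. Exons of other genes overlap Ctsd (Gm49369), Ctsz (Nelfcd), Ctsa (Neurl2 and Pltp), Hexa (Tmem202), Glb1 (Tmppe), Lamp1 (Grtp1) and Atp6v1h (Rgs20) as well, so their reads may be shared.

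Ctss, the cysteine protease that completes invariant chain removal in dendritic cells, was at 2699.8, 3763 and 3354 CPM in CTR replicates 1, 2 and 3, 3482, 3468 and 4564 CPM in NE-treated and 3409, 3373 and 3459.9 CPM in TDE-treated BMDCs. CTR and TDE-treated libraries overlapped, and NE-treated libraries were all above the TDE-treated ones. Its log2 fold change was 0.06 (SE 0.180, edgeR adjusted p = 0.819) against CTR and -0.17 (SE 0.180, edgeR adjusted p = 0.654) against NE. It was -0.07 without CTR replicate 1 (edgeR adjusted p = 0.702), so its sign against CTR turned with that library.

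Ctsc, which activates the serine proteases of granules, ranged over 679 to 1256 CPM in CTR, 1184 to 1217 CPM in NE-treated and 1444 to 1494 CPM in TDE-treated BMDCs. It did not pass with all libraries, at 0.49 (SE 0.224, edgeR adjusted p = 0.157), and was 0.25 without CTR replicate 1 (edgeR adjusted p = 0.0167). Ctsh, an aminopeptidase, was at 0.01 (SE 0.236, edgeR adjusted p = 0.975) and at 0.34 without CTR replicate 1 (edgeR adjusted p = 0.0137). Ctsa, the protective protein that stabilizes neuraminidase and beta-galactosidase, was at -0.19 (SE 0.279, edgeR adjusted p = 0.631) and turned to 0.24 without CTR replicate 1 (edgeR adjusted p = 0.034). All 3 were above CTR replicates 2 and 3 in the TDE-treated libraries, at 706 to 713 CPM for Ctsh and 753 to 778 CPM for Ctsa. Against NE, Ctsc, Ctsh and Ctsa were at 0.29, 0.38 and 0.22 with all libraries (edgeR adjusted p = 0.495, 0.382 and 0.73) and at 0.28, 0.37 and 0.21 without CTR replicate 1 (0.00398, 0.00434 and 0.0337). The asparaginyl protease Lgmn gave -0.44 (SE 0.183, edgeR adjusted p = 0.131), and -0.25 without CTR replicate 1 (edgeR adjusted p = 0.0898), while against NE without that library it was -0.36 (edgeR adjusted p = 0.0123). The low cysteine cathepsins Ctsf and Ctso, at -0.56 and 0.23 against CTR and at -0.25 and -0.05 without CTR replicate 1, passed edgeR's test in no comparison with or without CTR replicate 1.

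**Figure D3:**
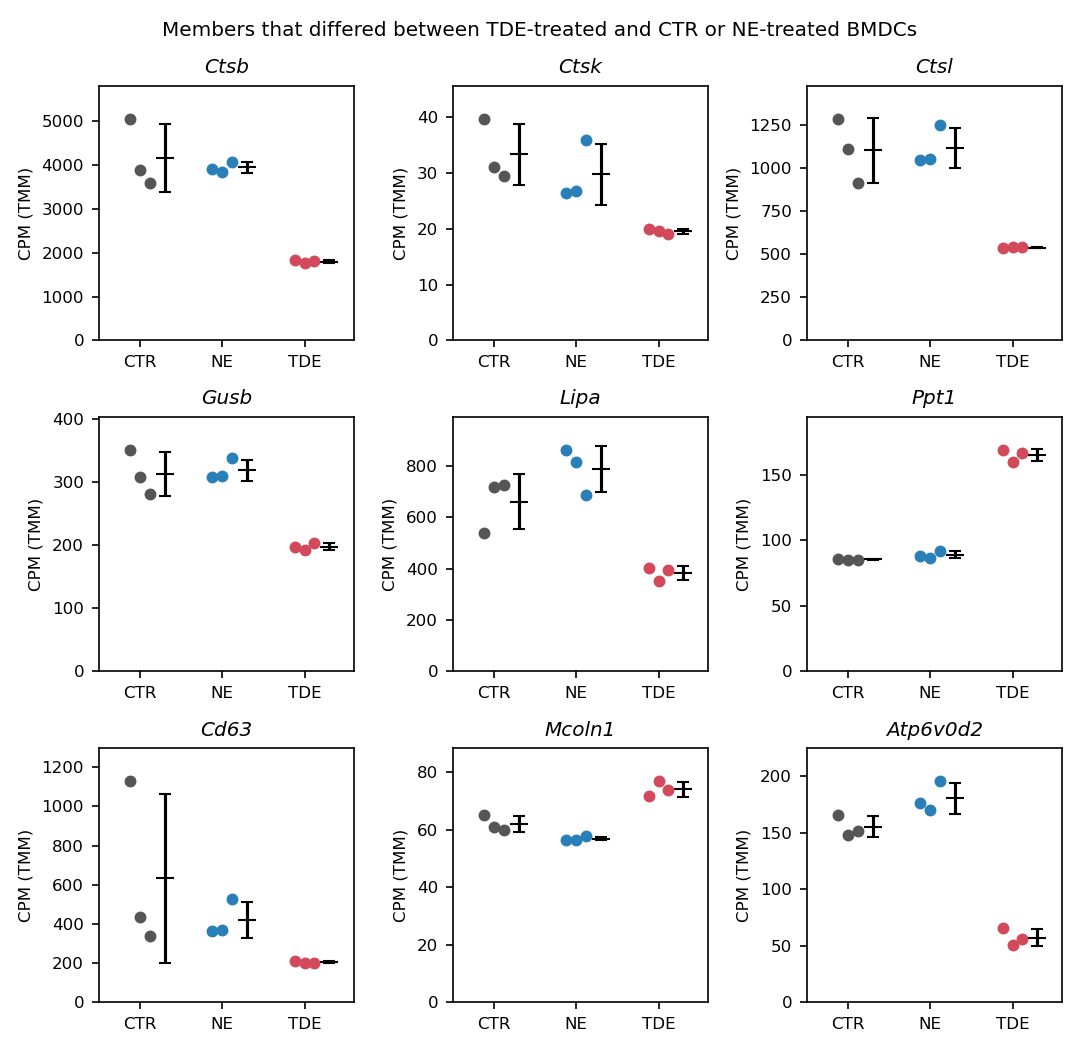
CPM of the 9 genes called in TDE-treated BMDCs against CTR or against NE. Points are libraries in the order of replicates 1, 2 and 3, and the black bar is the mean ± SD of 3 libraries. Ppt1 and Mcoln1 are higher in all 3 TDE-treated libraries and the other 7 lower, and CTR replicate 1 is far above the rest for Cd63.

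Of the 11 other hydrolases and saposins, 2 fell against CTR (Gusb and Lipa), 1 rose (Ppt1) and 8 did not pass, where 9.34% of all genes fell and 7.57% rose. With CTR replicate 1 left out, 3 fell and 3 rose, where 18.0% and 16.4% of all genes did. Ppt1, palmitoyl-protein thioesterase, removes fatty acyl groups from proteins to be degraded, and its loss causes an infantile neuronal ceroid lipofuscinosis. It was at 85.8, 85.3 and 85.1 CPM in CTR replicates 1, 2 and 3, 88.1, 86.8 and 91.9 CPM in NE-treated and 169, 160.0 and 167 CPM in TDE-treated BMDCs (GRCm38 chromosome 4, 122836242 to 122859175, plus strand). The TDE-treated libraries were far above both other groups, whose 6 libraries lay together. In log2 terms the change was 0.95 (SE 0.105, edgeR adjusted p = 0.000947) against CTR and 0.89 (SE 0.105, edgeR adjusted p = 0.00115) against NE, or 1.93-fold and 1.86-fold. It was 0.95 without CTR replicate 1 (edgeR adjusted p = 1.71e-05), and an exon of Cap1 overlaps it on the other strand.

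Lipa, lysosomal acid lipase, frees fatty acids and cholesterol from the cholesteryl esters and triglycerides that reach the lysosome. It was at 536, 717 and 726 CPM in CTR replicates 1, 2 and 3, 860.2, 815 and 687 CPM in NE-treated and 402, 351 and 395 CPM in TDE-treated BMDCs (GRCm38 chromosome 19, 34492318 to 34527474, minus strand). No TDE-treated library reached any other library, and CTR replicate 1 was the lowest of the CTR libraries. The log2 fold change was -0.79 (SE 0.169, edgeR adjusted p = 0.0165) against CTR and -1.04 (SE 0.170, edgeR adjusted p = 0.00519) against NE, and against CTR -0.93 without CTR replicate 1 (edgeR adjusted p = 0.000189). The call against CTR was lost without CTR replicate 2 or any 1 TDE-treated library (adjusted p up to 0.0875, log2 fold change -0.93 to -0.71), whereas the call against NE held in all 9 such fits. Lipa and Ppt1, both of which release fatty acyl groups, thus went in opposite directions.

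Gusb, beta-glucuronidase, was at 351, 308 and 282 CPM in CTR replicates 1, 2 and 3, 308, 310.0 and 338 CPM in NE-treated and 197, 193 and 203 CPM in TDE-treated BMDCs (GRCm38 chromosome 5, 129989011 to 130003049, minus strand). Its TDE-treated libraries were below all others. The log2 fold change was -0.66 (SE 0.129, edgeR adjusted p = 0.011) against CTR and -0.69 (SE 0.130, edgeR adjusted p = 0.0101) against NE, and -0.59 without CTR replicate 1 (edgeR adjusted p = 0.000433) against CTR. Both calls were lost without any 1 TDE-treated library, with adjusted p up to 0.0647 against CTR and 0.0608 against NE. Psap, the precursor of the saposins that present sphingolipids to their hydrolases, the highest of the list per base of gene length, was at 15677, 12051 and 10739 CPM in CTR replicates 1, 2 and 3, 11142, 11200.2 and 12388 CPM in NE-treated and 9293, 9195 and 9402 CPM in TDE-treated BMDCs. TDE-treated libraries were the lowest without overlap. Psap had a log2 fold change of -0.46 (SE 0.174, edgeR adjusted p = 0.102) against CTR, and -0.30 without CTR replicate 1 (edgeR adjusted p = 0.0193). Against NE it had -0.32 (SE 0.173, edgeR adjusted p = 0.305), and -0.32 without CTR replicate 1 (edgeR adjusted p = 0.00719). With all 9 libraries, DESeq2 and voom called Psap against CTR (adjusted p = 0.0309 and 0.00036). Against NE, voom called it (adjusted p = 0.000455) and DESeq2 did not.

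Glb1 (beta-galactosidase) and Neu1 (sialidase) form a complex with Ctsa. Their log2 fold changes against CTR were 0.11 (SE 0.211, edgeR adjusted p = 0.708) and 0.13 (SE 0.177, edgeR adjusted p = 0.6). Without CTR replicate 1 they were 0.41 and 0.35, with edgeR adjusted p of 0.00288 and 0.0116. Against NE they were 0.40 and 0.28 (edgeR adjusted p = 0.286 and 0.392), and 0.39 and 0.27 without that library (0.0016 and 0.0174). In CPM, Glb1 was 63.2 to 65.7 in TDE-treated, 47.7 to 50.8 in NE-treated and 46.5 to 82.2 in CTR BMDCs. For Hexa, the alpha subunit of beta-hexosaminidase, Gaa, which degrades glycogen, and Smpd1, acid sphingomyelinase, the values were -0.43, -0.03 and -0.12 with all libraries. Without CTR replicate 1 they were 0.11, 0.11 and 0.16, and edgeR's test was passed in neither fit. Tpp1, a tripeptidyl peptidase, and Asah1, acid ceramidase, were at 0.29 and 0.44, which came to 0.06 and 0.03 without that library, and did not pass edgeR's test.

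Of the 5 membrane proteins, 1 fell against CTR (Cd63) and 0 rose (9.34% and 7.57% of all genes), and Mcoln1 rose as well without CTR replicate 1. Cd63, a tetraspanin of late endosomes and their inner vesicles that is also carried by exosomes (GRCm38 chromosome 10, 128900989 to 128912822, plus strand), was at 1128, 433 and 340.2 CPM in CTR replicates 1, 2 and 3, 367, 371 and 529 CPM in NE-treated and 210.5, 204 and 203 CPM in TDE-treated BMDCs. The TDE-treated libraries lay close together and below all others, while CTR replicate 1 was far above every other library. The log2 fold change was -1.62 (SE 0.421, edgeR adjusted p = 0.0341) against CTR, but -0.92 without CTR replicate 1 (edgeR adjusted p = 0.00239), so the size of the difference rests on that library. The call against CTR was lost without any 1 NE-treated or TDE-treated library, with adjusted p up to 0.12. Against NE it was -1.04 (SE 0.415, edgeR adjusted p = 0.152), and -1.05 without CTR replicate 1 (edgeR adjusted p = 0.000567).

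Mcoln1 (TRPML1) is the calcium channel of the lysosome whose calcium activates calcineurin and, through it, TFEB. It was at 65.1, 61.0 and 59.9 CPM in CTR replicates 1, 2 and 3, 56.6, 56.6 and 57.7 CPM in NE-treated and 71.7, 77.0 and 73.9 CPM in TDE-treated BMDCs (GRCm38 chromosome 8, 3500457 to 3515232, plus strand). The TDE-treated libraries were above all others and the NE-treated libraries below all others. Mcoln1 had a log2 fold change of 0.38 (SE 0.105, edgeR adjusted p = 0.047) against NE and 0.26 (SE 0.105, edgeR adjusted p = 0.123) against CTR, and 0.29 without CTR replicate 1 (edgeR adjusted p = 0.0136) against CTR. The call against NE was lost when any library other than CTR replicate 1 was left out, with adjusted p up to 0.18. Against CTR, DESeq2 and voom called Mcoln1 with all 9 libraries (adjusted p = 0.0159 and 0.00159). Lamp1 and Lamp2, the glycoproteins that line the lysosomal membrane, were at 0.19 and 0.36 against CTR, and Scarb2 (LIMP-2), the receptor that carries glucocerebrosidase to the lysosome, at 0.10. They came to 0.06, 0.15 and 0.08 without CTR replicate 1, and edgeR called none of the 3 in either fit, while voom called Lamp2 higher against CTR (adjusted p = 0.0192) and NE (adjusted p = 0.0412). Scarb2 spanned only 270.3 to 278 CPM in CTR, 269 to 283 CPM in NE-treated and 288 to 298 CPM in TDE-treated BMDCs.

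Among the 5 proton pump genes, 1 fell against CTR (Atp6v0d2) and 0 rose (9.34% and 7.57% of all genes), with or without CTR replicate 1. Atp6v0d2 encodes the d2 isoform of the membrane part of the V-ATPase, known from osteoclasts, where it also takes part in cell fusion. It was at 166, 148 and 152 CPM in CTR replicates 1, 2 and 3, 176, 170.0 and 196 CPM in NE-treated and 65.5, 50.5 and 56.2 CPM in TDE-treated BMDCs (GRCm38 chromosome 4, 19876841 to 19922605, minus strand). The TDE-treated libraries did not reach the others, and NE-treated libraries were all above CTR. TDE-treated BMDCs had a log2 fold change of -1.44 (SE 0.141, edgeR adjusted p = 0.000555) against CTR and -1.65 (SE 0.142, edgeR adjusted p = 0.000269) against NE, 2.71-fold and 3.15-fold lower. It was -1.40 without CTR replicate 1 (edgeR adjusted p = 2.51e-05). Its isoform Atp6v0d1, made in all cells, was at -0.42 (SE 0.284, edgeR adjusted p = 0.31), and 0.00 without CTR replicate 1 (edgeR adjusted p = 0.983). Atp6v1a and Atp6v1h, subunits of the part that splits ATP, were at 0.61 and 0.25, and Atp6ap1, an accessory subunit, at 0.14. They came to 0.21, 0.08 and 0.02 without CTR replicate 1. None was called by edgeR, and voom called Atp6v1a higher against CTR (adjusted p = 0.0347).

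**Figure D4:**
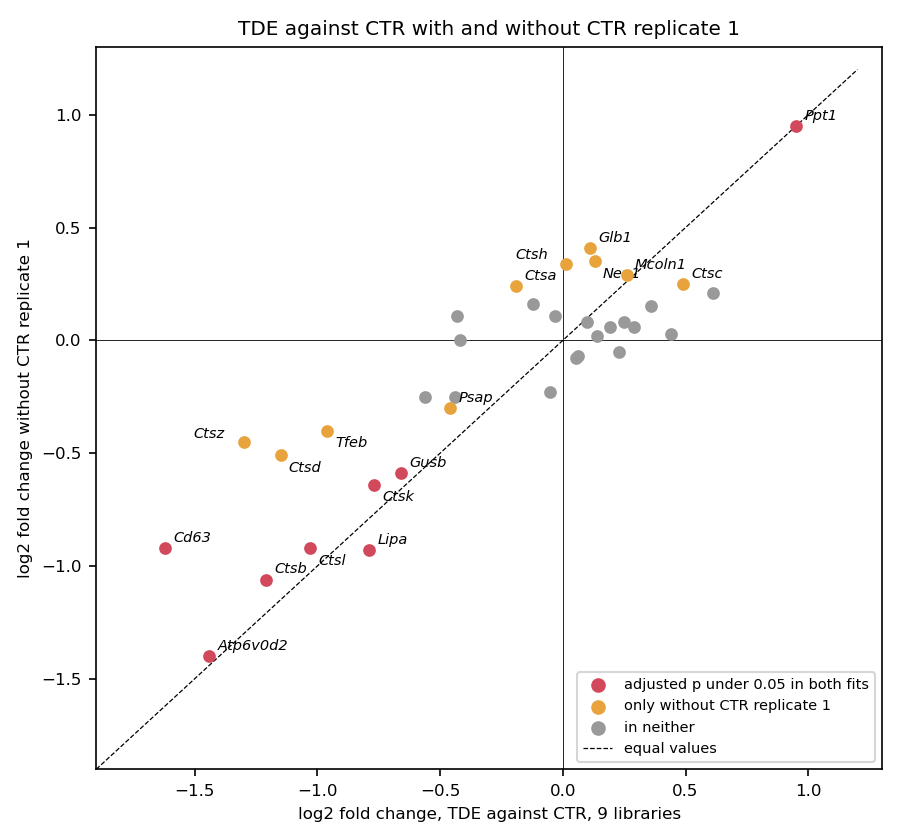
Log2 fold change of the 36 genes in TDE-treated against CTR BMDCs with all 9 libraries (horizontal) and without CTR replicate 1 (vertical), with the dashed line marking equal values. Red genes (8) had an edgeR adjusted p under 0.05 in both fits, orange genes (10) only without CTR replicate 1, and Ctsa, one of the latter, lies on opposite sides of 0 in the 2 fits.

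Ctsb, Ctsl, Ppt1 and Atp6v0d2 passed against both CTR and NE in all 17 other fits tried, and Lipa in all 17 against NE. Ppt1, at 0.95 and 0.89, did not reach the further limit of a log2 fold change of at least 1. Per base of gene length, scaled to the same total in each library, Psap was the highest of the list (mean over 9 libraries 7866 ± 1331, SD, n = 9), then Ctss (4992 ± 1238) and Ctsd (4174 ± 949.6). The order of Ctss and Ctsd varied between groups: Ctsd had the higher mean in CTR (4840 ± 613 against 4275 ± 2068, SD, n = 3), where they overlapped within 1 SD, and Ctss in TDE-treated BMDCs (4929 ± 72.3 against 2984 ± 117). Psap had the highest mean in each group, although in CTR (7817 ± 1930) it overlapped with Ctss within 1 SD. Ctsb came next at 1292 ± 471, and Smpd1 and Ctsf were lowest, at 15.3 ± 1.45 and 12.2 ± 1.31. On this scale Atp6v0d2 went from 146 ± 4.66 (SD, n = 3) in NE-treated to 44.2 ± 5.65 in TDE-treated BMDCs, while Atp6v0d1 was at 167 ± 10.5 and 156 ± 3.01. The difference between the isoforms was thus larger in TDE-treated than in NE-treated BMDCs, which was not tested.

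Wider lists of lysosomal genes, counted the same way, gave the following counts, beside a median of -0.05 for all genes. Of all genes tested, 7.57% rose and 9.34% fell against CTR, 16.4% and 18.0% without CTR replicate 1, and 6.73% and 7.21% against NE. Of 46 other hydrolases and cofactors tested, 5 rose and 9 fell against CTR, with a median log2 fold change of -0.10 (8 and 12 without CTR replicate 1, and 4 and 8 against NE). Largest among them were Rnaset2a, a ribonuclease, at -1.91 (SE 0.480, edgeR adjusted p = 0.0305), Ctse, an aspartic cathepsin, at -1.87 (SE 0.214, edgeR adjusted p = 0.00113), Dnase2a, the lysosomal DNase, at -1.68 (SE 0.398, edgeR adjusted p = 0.0241), and Ctsg, a serine protease of granules, at -1.61 (SE 0.320, edgeR adjusted p = 0.0118). Of 34 other membrane proteins and transporters, 3 rose and 4 fell, with a median of -0.13 (4 and 10 without CTR replicate 1, and 4 and 5 against NE). Slc11a2, which moves iron out of endosomes, rose by 1.39 (SE 0.131, edgeR adjusted p = 0.000476) on the log2 scale, while Mcoln2, a relative of Mcoln1, was at -0.93 (SE 0.148, edgeR adjusted p = 0.00486), Laptm4b at -1.38 (SE 0.241, edgeR adjusted p = 0.00713) and Mfsd12 at -0.93 (SE 0.159, edgeR adjusted p = 0.00664). All 20 genes named from the wider lists for their size passed against CTR without CTR replicate 1 too, with the same sign, but the values of Rnaset2a and Dnase2a came to -1.06 and -0.99. The related gene Rnaset2b, not among the 20, was at -0.44 against CTR with all libraries (edgeR adjusted p = 0.642). Without CTR replicate 1 it was at 1.02 (edgeR adjusted p = 0.000402), opposite to Rnaset2a. Whether reads were shared between Rnaset2a and Rnaset2b was not tested. Of 13 other V-ATPase subunits 0 rose and 1 fell, with a median of -0.31 (0 and 3 without CTR replicate 1, and 0 and 1 against NE). The one that fell was Atp6v0a1, at -0.94 (SE 0.149, edgeR adjusted p = 0.00476).

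Of 41 endosomal sorting genes 2 rose and 2 fell against CTR, where 7.57% and 9.34% of all genes did (16.4% and 18.0% without CTR replicate 1, and 6.73% and 7.21% against NE), with a median of 0.06 (4 and 9 without CTR replicate 1, and 2 and 5 against NE). Cd81, a tetraspanin like Cd63, rose, at 1.04 (SE 0.160, edgeR adjusted p = 0.00432), as did Vps11, of the tethering complexes of endosomes, at 0.57 (SE 0.131, edgeR adjusted p = 0.0222), and Vac14, of the PIKfyve complex, fell, at -0.62 (SE 0.141, edgeR adjusted p = 0.0207). Among 30 regulators of the MiT/TFE factors and of mTORC1 at the lysosome, 1 rose and 5 fell, with a median of -0.19 (6 and 5 without CTR replicate 1, and 2 and 3 against NE). Those with the largest differences were Depdc5, Tfec, Ppp3ca and Sesn1. Depdc5, which restrains mTORC1, was at 1.0 (SE 0.243, edgeR adjusted p = 0.0266). Tfec, itself a MiT/TFE factor, was at -0.83 (SE 0.123, edgeR adjusted p = 0.00368), and at -0.77 against NE (edgeR adjusted p = 0.00456). The calcineurin subunit Ppp3ca was at -0.78 (SE 0.219, edgeR adjusted p = 0.0437), or -0.48 without CTR replicate 1. Sesn1, a leucine sensor, was at -0.76 (SE 0.139, edgeR adjusted p = 0.00853). Without CTR replicate 1, the calcineurin subunits Ppp3cb and Ppp3r1 were higher, at 0.48 and 0.40 (edgeR adjusted p = 0.00141 and 0.00403). So was Sesn2, at 0.32 (edgeR adjusted p = 0.0397), while Sesn3 was at 0.02. With all libraries edgeR called none of Ppp3cb, Ppp3r1, Sesn2 and Sesn3 against CTR. Of 24 autophagy genes 5 rose and 1 fell, with a median of 0.06 (9 and 2 without CTR replicate 1, and 3 and 1 against NE). Bnip3, a mitophagy receptor, rose most, at 2.34 (SE 0.279, edgeR adjusted p = 0.00131), followed by Wipi1 at 0.95 (SE 0.175, edgeR adjusted p = 0.00855), Ulk1, the kinase that starts autophagy, at 0.62 (SE 0.153, edgeR adjusted p = 0.0288), and Atg12 at 0.51 (SE 0.113, edgeR adjusted p = 0.0187). None of 8 cystatins and stefins, which inhibit cysteine cathepsins, was called (0 and 1 without CTR replicate 1), with a median of -1.56 that came to -0.42 without that library.

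Dendritic cell markers such as Itgax and Cd74 were present in all libraries, as were macrophage markers such as Adgre1, and markers of other cells moved with the treatment. Of 10 neutrophil markers tested, 8 fell in TDE-treated against CTR BMDCs, beside 9.34% of all genes, and the summed level of the listed markers was 7253 to 28985 CPM in CTR, 7646 to 10933 CPM in NE-treated and 3254 to 3552 CPM in TDE-treated BMDCs. CTR replicate 1 held the highest sum, and the next CTR library had 9599 CPM. All 6 eosinophil markers fell, with summed levels of 605 to 1642 CPM, 618 to 705 CPM and 112 to 140.0 CPM. Of 4 mast cell and basophil markers tested, 3 fell, summing to 97.9 to 229 CPM, 103 to 128 CPM and 23.1 to 24.7 CPM, with Mcpt4 at 0 throughout. All 4 T and B cell markers tested fell, summing to 23.8 to 38.3 CPM, 22.5 to 27.7 CPM and 11.1 to 11.4 CPM. Of 10 dendritic cell markers 4 fell and 0 rose (summed 3583 to 11548 CPM, 3444 to 4296 CPM and 1989 to 2110.1 CPM), and of 10 macrophage markers 3 fell and 1 rose, Adgre1, at 2.56 (SE 0.304, edgeR adjusted p = 0.0013), with Apoe at -4.46 (SE 0.545, edgeR adjusted p = 0.00146). Without CTR replicate 1, 9 neutrophil, 6 eosinophil, 4 mast cell and basophil, 4 T and B cell, 7 dendritic cell and 6 macrophage markers were lower, while 1 neutrophil, 2 dendritic cell and 2 macrophage markers were higher, beside 18.0% and 16.4% of all genes.

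Among osteoclast markers, a cell type that shares Ctsk, Mitf and Atp6v0d2, 3 of 5 tested fell and 1 rose against CTR, beside 9.34% and 7.57% of all genes. Without CTR replicate 1, 2 of 5 fell and 1 rose, beside 18.0% and 16.4%. Acp5, the tartrate-resistant phosphatase, rose, at 1.48 (SE 0.363, edgeR adjusted p = 0.028), and Dcstamp, a fusion protein, fell, at -2.65 (SE 0.155, edgeR adjusted p = 6.98e-05), as did Mmp9, at -0.84 (SE 0.115, edgeR adjusted p = 0.00249). Their summed level was 485 to 608 CPM in CTR, 510.1 to 515 CPM in NE-treated and 565 to 580.4 CPM in TDE-treated BMDCs, with Calcr at 0 in all libraries. Fibroblast markers (1 of 5 tested higher) summed to 4.28 to 7.59 CPM and epithelial markers (1 of 2 tested lower) to 4.37 to 12.6 CPM over the 9 libraries, with Krt5 at 0. The part of these cells in the changes of the lysosomal genes was not tested, and in bulk RNA fewer cells of a type and less RNA per cell cannot be told apart.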

How the data were processed

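RNA of 9 BMDC libraries was compared (CTR, NE-treated and TDE-treated, 3 per group). The authors deposited estimated counts (expected counts) of reads per gene without normalization, with authors' group means that were not used. The submitters' processing notes name TopHat2 2.1.1, DESeq2 1.24.0 and R 3.3.1. The counting program, its strand setting, the annotation and the genome build are not given in the sources used here. All 55536 Ensembl identifiers were found in GENCODE vM21 (GRCm38), which gave positions and exon overlaps, and 1702 other entries carry none. All columns of per-sample values were matched to samples (0 left over).

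Estimated counts were rounded to whole numbers, filtered with edgeR's filterByExpr (15028 genes kept) and normalized by TMM. edgeR 4.0.16 in R 4.3.3 was fitted to all 9 libraries with 1 mean per group, and pairs of groups were compared by the quasi-likelihood F test with Benjamini-Hochberg adjustment over all genes tested, called at an adjusted p under 0.05. The standard error is the log2 fold change divided by the square root of F. Levels between genes were compared per base of the gene length in the table. Promoters came from RefSeq (GRCm38.p6). A planned comparison of protein sequences was not run, and protein sequences were not used here.

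The 36 genes, the wider lists and the marker lists (dendritic cell, macrophage, neutrophil, eosinophil, mast cell and basophil, osteoclast, fibroblast, epithelial, T and B cell) were chosen with earlier results of these data known. Values in every library are given for genes of the 36 called in TDE-treated against CTR or NE-treated BMDCs, the 3 MiT/TFE factors among the 36 and the 3 genes highest per length. From each wider list, at most 4 genes are named, those with the largest absolute log2 fold change against CTR among called genes that averaged 5 CPM or more and whose libraries did not overlap. Rnaset2b, Ppp3cb, Ppp3r1, Sesn2 and Sesn3 are given in addition, beside named genes of the same family or complex. Marker genes named in the text were chosen after their values were seen. Alternatives were DESeq2 1.42.0, limma 3.58.1 voom with sample weights, median-ratio factors, library totals, other filters on low counts, the 6 libraries of a pair, a replicate block, a log2 fold change of at least 1, and each library left out in turn. The fit was tested on simulated data for the comparison of TDE-treated with CTR BMDCs (15028 genes, dispersion 0.106, 200 changed genes): 11 of 100 genes changed 2-fold and 92 of 100 changed 4-fold were called, with 3 unchanged genes. The simulation gave all genes the same dispersion and held no library that stood apart like CTR replicate 1. These shares therefore need not hold for the real libraries. Figures were drawn with Python 3.11.15 and matplotlib 3.10.9.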

Additional observations from a re-analysis of the deposited data

Results flagged for a closer look

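The comparison of TDE-treated with NE-treated BMDCs is also the test of whether the effects of both kinds of exosome against CTR differ, and 7 of the 36 genes passed it in edgeR, 2 higher and 5 lower, where 6.73% of all genes were higher and 7.21% lower. Atp6v0d2, a proton pump isoform, had a difference of -1.65 on the log2 scale, the cathepsins Ctsb and Ctsl had -1.13 and -1.05, the acid lipase Lipa -1.04 and beta-glucuronidase Gusb -0.69. The thioesterase Ppt1 and the channel Mcoln1 differed the other way, by 0.89 and 0.38. Every TDE-treated library lay beyond every NE-treated library for all 7, as it did upward for 26.8% and downward for 27.7% of all genes tested. The 7 were picked by a test on these same libraries, so their lack of overlap is no separate support. With single libraries left out, the call of Mcoln1 was lost for any but CTR replicate 1 and that of Gusb for any TDE-treated library.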

How the results depend on the processing

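Counts of lower and higher genes in the list moved with the treatment of the spread between libraries, and the cause was not tested. In TDE-treated against CTR BMDCs (1 higher, 7 lower, 2541 of all genes called), DESeq2 gave 2, 11 and 4018, voom with sample weights 9, 13 and 7886, and the 6 libraries of the pair 4 lower of 1152 called. A log2 fold change of at least 1 left 0 higher, 4 lower and 1583 called. Leaving out each library in turn gave 1 to 7 higher, 3 to 13 lower and 1103 to 5263 called. The 7 higher and 5263 called came without CTR replicate 1, the 13 lower without CTR replicate 3 (3944 called), and the 3 lower without any 1 TDE-treated library (1103 to 1177 called). In TDE-treated against NE-treated BMDCs (2, 5 and 2095), voom gave 9, 13 and 8311, the 6 libraries of the pair 7, 13 and 6072, and a log2 fold change of at least 1 gave 0 higher of 1307 called, since fewer genes reach it. Library totals and no filter each gave 1 higher. Leaving out each library gave 1 to 7 higher, 4 to 13 lower and 970 to 6223 called. Without CTR replicate 1 there were 7 higher, 13 lower and 6223 called, without any other library 1 higher, and without an NE-treated or TDE-treated library 970 to 1274 called. For NE-treated against CTR, DESeq2 called 6 genes, voom 18 and single libraries left out 0 to 3, none of them in the list, for which all fits gave 0 higher and 0 lower.

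The sources state no pairing of libraries by replicate number. Deviations of same-numbered libraries from their group means correlated at -0.035, -0.056 and 0.072 for TDE and CTR, at 0.027, -0.039 and -0.071 for TDE and NE, and at -0.370, 0.185 and -0.585 for NE and CTR. With 3 libraries per group and CTR replicate 1 apart from the rest, these values can neither show nor exclude a pairing. With the replicate block, 1 gene was higher and 3 lower of 1285 called against CTR (4.09% and 4.46% of all genes), and 1 higher and 4 lower of 1175 against NE (3.9% and 3.92%).

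Against CTR, 12 uncalled genes changed sign. Under voom these were Ctsa (0.22), Ctss (-0.10), Hexa (0.072), Gaa (0.13), Smpd1 (0.14), Atp6ap1 (-0.0023) and Tfe3 (-0.051), with library totals Gaa (0.063) and Smpd1 (0.0041), with no filter Gaa (0.023) and with the 6 libraries Ctsh (-0.013). With libraries left out in turn, log2 fold changes ran from -0.38 to 0.24 for Ctsa, -0.15 to 0.34 for Ctsh, -0.052 to 0.44 for Ctso, -0.07 to 0.18 for Ctss, -0.65 to 0.11 for Hexa, -0.027 to 0.41 for Glb1, -0.10 to 0.11 for Gaa, -0.26 to 0.16 for Smpd1, -0.62 to 0.0038 for Atp6v0d1, -0.076 to 0.13 for Tfe3 and -0.23 to 0.12 for Mitf. Only Ctsa passed the test after turning sign, by voom and without CTR replicate 1. The depth, 17469782 reads or more, left all 36 genes above the floor, and what limits the calls was not tested.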
